A study of Caenorhabditis elegans with 2 samples.

Results

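The actin and tubulin genes of Caenorhabditis elegans studied here are 10 genes, taken by name from the 19973 protein-coding genes of the nuclear chromosomes. They are the actins act-1 to act-5, the alpha-tubulins tba-1 and tba-2, the beta-tubulins tbb-1 and tbb-2, and the gamma-tubulin tbg-1. The data are chromatin immunoprecipitation sequencing (ChIP-seq) peak lists for NHR-237, a nuclear hormone receptor, in mixed-stage embryos of both sexes. There was a single group of 2 biological replicates of strain OP228, which has the unc-119(ed3) mutation and the integrated transgene wgIs228 for NHR-237 fused to eGFP. Both replicates share that background, and there was no untagged strain among the samples analysed here. Each replicate list and the list pooled from both hold peaks and background regions. The optimal list of the irreproducible discovery rate (IDR) procedure, which keeps peaks that rank alike between lists, is the shortest of the 4. Whole embryos were used, so a weak signal cannot tell occupancy in few cells from low occupancy in many. Transcript levels were not measured, and the words broadly expressed and tissue-restricted below are background knowledge.

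Actin polymerises into the filaments of the cell cortex, the cytokinetic ring and muscle. Alpha- and beta-tubulin form the dimers that build microtubules, and gamma-tubulin nucleates microtubules at centrosomes. In the worm embryo both systems are needed in every dividing cell, and particular isoforms serve differentiated tissues. The 3 clustered actin genes act-1, act-2 and act-3 serve the early embryo and muscle, and tba-1, tba-2, tbb-1, tbb-2 and tbg-1 serve the embryonic divisions, so these 8 were taken as broadly expressed. The other two were taken as tissue-restricted: act-4, an actin used mainly in muscle, and act-5, the actin of microvilli in the intestine and excretory cell.

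A window from 500 bp upstream to 200 bp downstream of each annotated 5′ end was searched for summits. The 3 stretches of 200 bp shown here are centred on the IDR summits at act-2, act-4 and tbb-1, and they are shown because they hold the sequence under these summits. They are read from the RefSeq copy of assembly WBcel235, which has ce11 coordinates, on the strand of the member and 5′ to 3′. The stretch of act-2 is chrV:11078486-11078685 on the minus strand, that of act-4 is chrX:4962407-4962606 on the plus strand and that of tbb-1 is chrIII:10742599-10742798 on the minus strand. Capitals mark short motifs, on either strand, from a list of 12 motifs and 3 added after the sequences were compared.
act-2: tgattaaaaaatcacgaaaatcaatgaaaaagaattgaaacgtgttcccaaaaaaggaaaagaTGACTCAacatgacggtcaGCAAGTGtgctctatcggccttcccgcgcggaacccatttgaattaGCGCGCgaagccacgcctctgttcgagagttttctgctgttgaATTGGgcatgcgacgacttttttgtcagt
act-4: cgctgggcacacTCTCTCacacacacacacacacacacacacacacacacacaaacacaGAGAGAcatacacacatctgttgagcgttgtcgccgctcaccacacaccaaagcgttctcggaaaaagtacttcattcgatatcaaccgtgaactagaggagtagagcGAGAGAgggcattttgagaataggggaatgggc
tbb-1: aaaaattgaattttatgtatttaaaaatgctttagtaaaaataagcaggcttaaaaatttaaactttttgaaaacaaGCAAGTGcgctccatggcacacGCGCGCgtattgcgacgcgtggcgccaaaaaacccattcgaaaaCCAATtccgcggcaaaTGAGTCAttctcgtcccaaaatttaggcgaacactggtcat

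The stretches differ in kind. Those of act-2 and tbb-1 each hold GCAAGTG and, on one strand or the other, TGACTCA and CCAAT. The palindrome GCGCGC is in both too. The motif GCAAGTG was centred 15 bp before the summit at act-2 and 20 bp before it at tbb-1, and GCGCGC was 31 bp and 2 bp after it. Neither motif was within 300 bp at tba-2, the member of highest IDR signal, or at act-4. The stretch of act-4 holds a CA repeat with the repeat GAGAGA on either side of it, matched at 3 places. Within 300 bp centred on the summit, TGACTCA was at 3 of the 4 members with an IDR summit, namely act-2, tba-2 and tbb-1, and not at act-4. It was in 2.86% of the windows of 300 bp at all 1611 nuclear IDR summits and in 3.61% of 19973 promoters of the same length, taken from 250 bp before to 50 bp after the most upstream 5′ end. GCAAGTG was in 5.96% and 2.90% of these, and GCGCGC in 17.0% and 3.57%. These 3 motifs were picked because members share them, so their presence at the members is a description.

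Of the 12 motifs, GAGAGA was at the summits of act-4 and tba-2, and in 47.7% of IDR windows against 21.8% of promoters. The GATA site TGATAA was within 300 bp at act-2, tba-2 and tbb-1, always more than 100 bp after the summit, and in 16.0% of IDR windows against 30.2% of promoters. The nuclear receptor core AGGTCA was at tba-2 alone of the 4, centred 9 bp before the summit, and in 6.15% of IDR windows against 8.23% of promoters. CCAAT was at act-2, tba-2 and tbb-1, and in 39.0% of IDR windows against 45.5% of promoters. The GC share of the 300 bp was 55.3% at act-4, 41.3% at act-2, 37.7% at tba-2 and 37.3% at tbb-1. The median of all IDR windows was 39.3%, with 10th and 90th percentiles of 31.7% and 49.7%, so act-4 lay above the range of the middle windows and the others within it. The promoters were poorer in GC, with a median of 34.3% and 10th and 90th percentiles of 28.7% and 41.7%. The motif shares of IDR windows and promoters were not matched for GC. A match to a motif shows only that these letters are present.

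IDR summits lay in the windows of 4 of the 10 genes: the alpha-tubulin tba-2, the beta-tubulin tbb-1 and the actins act-2 and act-4. Of all protein-coding genes, 6.69% had one. By family, 2 of 5 actins and 2 of 5 tubulins had an IDR summit. By expression, 3 of 8 broadly expressed members and 1 of 2 tissue-restricted members had one, so the classes could not be separated by this count. With act-1 and act-3 counted as tissue-restricted muscle actins, the counts were 3 of 6 and 1 of 4, and the order of the shares was the other way round. Their median IDR signal was 115.8, beside 109.8 for the 1336 genes with an IDR summit, and the 4 values ranged from 82.1 to 303. The members were chosen with earlier results of these data known, so the counts describe these genes and were not tested.

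**Figure D1:**
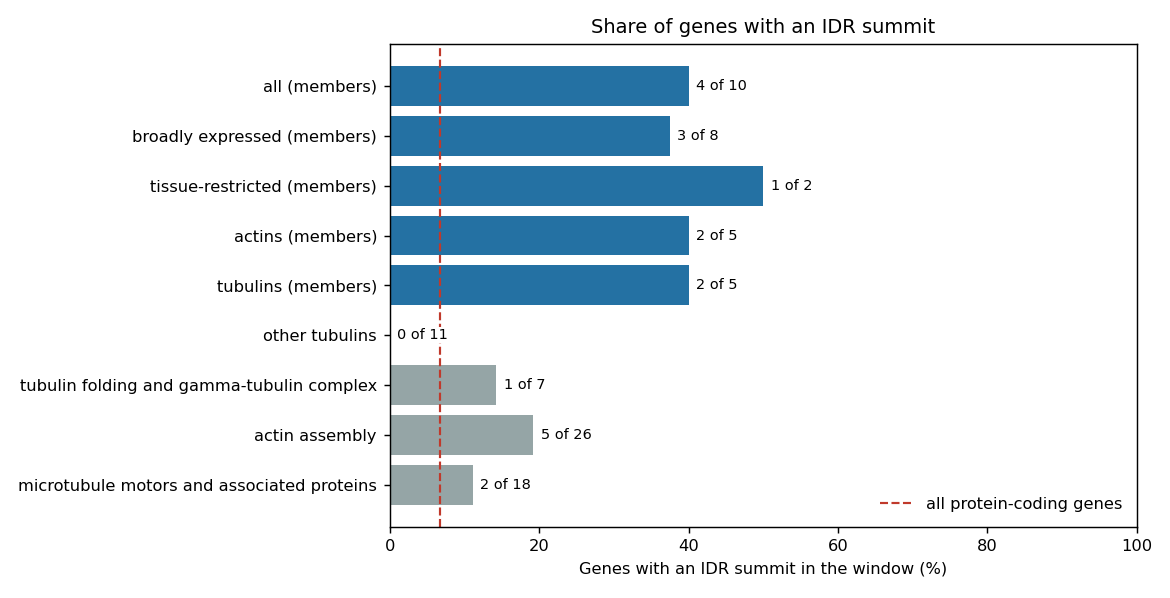
Share of genes with an IDR summit in the window, in percent, for the members (blue) and for 4 lists of other cytoskeletal genes (grey), with counts at the bars and the share of all protein-coding genes as a dashed line. The members' bars lie between 37.5% and 50%, and the bar of the other tubulins is at 0.

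The longer lists covered more members. The pooled list had a summit in the windows of 7 of 10 members, against 33.1% of all genes. The replicate 1 list, with 10872 peaks, had one at 6 members, against 18.9%. The replicate 2 list, with 30000 peaks, had one at 7 members, against 32.7%. Both replicate lists had a summit at act-2, act-3, act-4, tba-1, tba-2 and tbb-1, or 6 of 10, against 15.2% of all genes. These lists include background regions. At act-5, tbb-2 and tbg-1 none of the 4 lists had a summit in the window, and at act-1 only the pooled and replicate 2 lists had one. The signal is the value of the authors' peak caller and is compared only within a list.

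**Figure D2:**
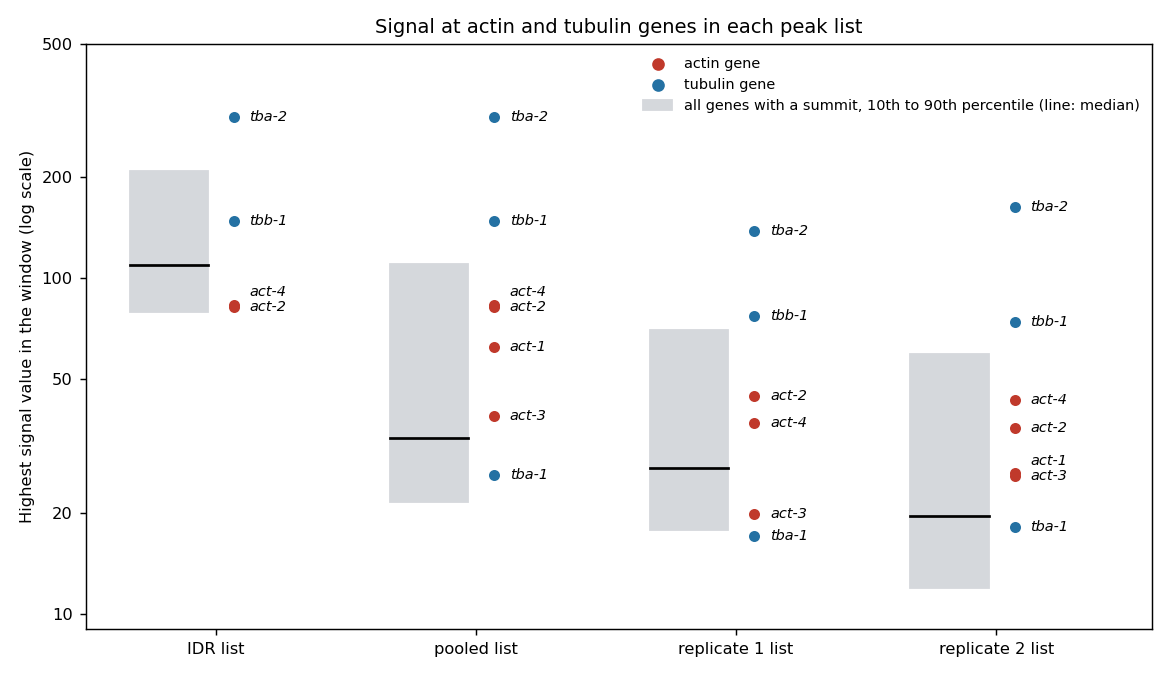
Highest signal value in the window of each member, on a log axis, in the 4 peak lists, with actins in red and tubulins in blue. Grey bars span the 10th to 90th percentile of all protein-coding genes with a summit in that list and black lines give their median; tba-2 is the highest member and lies above the grey bar in each list.

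The alpha-tubulin gene tba-2 (WBGene00006529, chromosome I at 12964674 to 12966795) had the highest signal of the 10 in every list. Its IDR peak, at 12966871 to 12967013, had a signal of 303 and ranked 56 of 1626. It was 143 bp wide, where the median IDR peak was 396 bp. The summit lay 135 bp upstream of the more upstream of its 5′ ends. In the replicate 1 list the signal was 139, at rank 66, and in the replicate 2 list it was 164, at rank 52. Both replicates thus placed it near the top of their list, and their summits were 2 bp apart. Of the 3783 genes with a replicate 1 summit 98.8% had a lower signal, and of the 6522 with a replicate 2 summit 99.4% did. The gene upstream, the proteasome subunit gene pbs-2, is on the same strand and ends 420 bp before the tba-2 5′ end, and the summit lay in no other gene's window. The assignment to tba-2 rests on 1 annotated transcript. From the other 5′ end of tba-2, at 12966271 and the only one in the RefSeq annotation, the summit was 659 bp upstream and outside the window.

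The genes closest to tba-2 in signal over the 2 replicate lists, among 3037 genes with a summit in both, were eef-1A.1, rfc-4 and bag-1. The genes eef-1A.1, which encodes a translation elongation factor, and rfc-4, which encodes a subunit of a DNA replication clamp loader, shared a single summit with signals of 133 and 165. The co-chaperone gene bag-1 had 132 and 164. Their distance from tba-2 was 0.059, 0.059 and 0.076 on the log2 scale.

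The other alpha-tubulin gene, tba-1 (WBGene00006528, at 9785781 to 9787624 on the same chromosome), had no IDR summit in its window. The 2 genes encode proteins of 454 and 448 residues that differ at 11 of 448 aligned residues. The pooled summit at tba-1 had a signal of 25.9, at rank 16288 of 30000. The replicate 1 summit had a signal of 17.1 and the replicate 2 summit 18.2, and these lay 478 bp apart, so no position was shared. A strong peak lay nearby: the IDR peak ranked 51, with a signal of 315, had its summit 1085 bp upstream of tba-1. That summit was 16 bp upstream of the divergent gene cox-5B, which encodes a subunit of cytochrome c oxidase.

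Of the beta-tubulin genes too, tbb-1 had an IDR summit in its window and tbb-2 did not. At tbb-1 (WBGene00006536, chromosome III at 10740868 to 10742432), the IDR peak at 10742501 to 10742896 had a signal of 148 and ranked 393. Its signal was 77.5 in replicate 1, at rank 338, and 74.1 in replicate 2, at rank 459, with summits 12 bp apart. The 5′ ends of tbb-1 and of the divergent gene rib-2, which encodes an enzyme of heparan sulphate synthesis, are separated by 377 bp, and the summit lay between them. It was 267 bp upstream of tbb-1 and 111 bp upstream of rib-2, so it was nearer to rib-2 and cannot be assigned to either gene alone. At tbb-2 (WBGene00006537, chromosome III at 4015910 to 4017627) no list had a summit in the window. Just outside it, the pooled list had a summit 539 bp upstream with a signal of 29.5 and replicate 2 had one 565 bp upstream with a signal of 17.5. The nearest IDR summit was 2419 bp upstream, with a signal of 99.8, and lay 9 bp downstream of the 5′ end of the divergent gene snpc-3.4. The TBB-1 and TBB-2 proteins differ at 8 of 448 aligned residues.

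The gamma-tubulin gene tbg-1 (WBGene00006540, chromosome III at 9626536 to 9629154) lay in a run of genes on 1 strand. The end of the upstream gene rpac-19, which encodes a subunit of RNA polymerases, is 91 bp from the tbg-1 5′ end. No list had a summit in the tbg-1 window. The pooled list had a summit 863 bp upstream, with a signal of 62.6 at rank 2071. The replicate 1 summit was 877 bp upstream, with a signal of 38.6, and the replicate 2 summit was 814 bp upstream, with a signal of 30.5. All 3 lay in the window of rpac-19. The nearest IDR summit, with a signal of 125, was 2333 bp upstream of tbg-1 and 320 bp upstream of ubc-7, a ubiquitin-conjugating enzyme gene on the same strand.

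**Figure D3:**
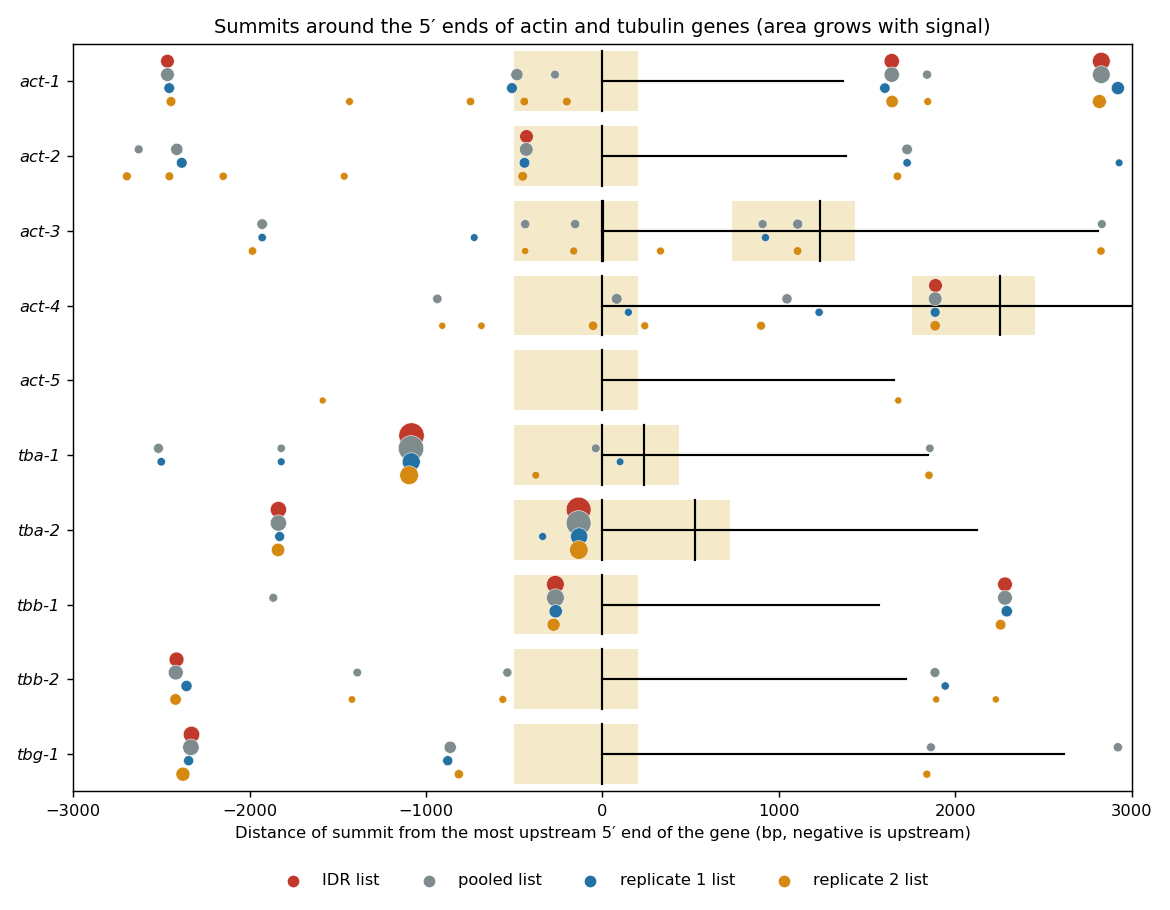
Summits of the 4 lists around each member, placed by distance in bp from its most upstream 5′ end (0), with negative values upstream; point area grows with signal, black lines are genes, vertical ticks are 5′ ends and shaded boxes are the windows. At tba-2, tbb-1, act-2 and act-4 the 4 lists stack at a single place in a window, at tba-1 the large stack lies 1085 bp upstream of the window's 5′ end, and act-5 has no stack. In the stacks of those 4 members the IDR and pooled points are the same peaks with the same signals. The pooled list was made from both replicates, so the 4 lists are not independent.

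The actins act-1, act-2 and act-3 lie in a cluster on chromosome V, and only act-2 had an IDR summit in its window. The genes act-2 (WBGene00000064, at 11076777 to 11078154) and act-1 (WBGene00000063, at 11081052 to 11082415) are divergent, with 2897 bp between them. The IDR peak of act-2, at 11078388 to 11078783, had a signal of 82.1 and ranked 1325 of 1626, with 15.0% of the genes that have an IDR summit below it. The summit lay 432 bp upstream, in the windows of the non-coding RNA genes T04C12.18, T04C12.23 and T04C12.24 too. In replicate 1 the signal was 44.4, at rank 1114, and in replicate 2 it was 35.9, at rank 1952, with summits 10 bp apart. In replicate 2 act-2 was thus not among the 1626 highest peaks, which is the length of the IDR list.

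At act-1 the summits lay around the edge of the window. The pooled summit of highest signal was 485 bp upstream, inside the window, with a signal of 62.5 at rank 2075. The replicate 1 summit was 513 bp upstream, outside it, with a signal of 45.3 at rank 1068. In replicate 2 the window held summits 202 bp upstream, with a signal of 26.2, and 443 bp upstream, with a signal of 25.6. In replicate 1 the signal was close to the 44.4 at act-2, while in replicate 2 both signals were below the 35.9 at act-2. Of these summits of replicate 2, the one 443 bp upstream was the nearer to the replicate 1 summit 513 bp upstream. An IDR summit with a signal of 107 lay 1640 bp downstream of the act-1 5′ end, beyond the gene's 3′ end, and in no protein-coding gene's window.

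At act-3 (WBGene00000065, at 11071690 to 11074498), the pooled list had 4 summits in the windows of its 3 annotated 5′ ends, with signals from 28.2 to 38.8. The replicate 1 summit, with a signal of 19.9, and the highest replicate 2 summit, with a signal of 25.7, were 182 bp apart. The median gap over the 1308 genes with an IDR summit and a summit in both replicates was 21.0 bp, and over the 1729 such genes without an IDR summit it was 71.0 bp. The gap at act-3 was therefore wider, and the gaps at tba-2, tbb-1, act-2 and act-4 narrower, than the median of their kind.

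**Figure D4:**
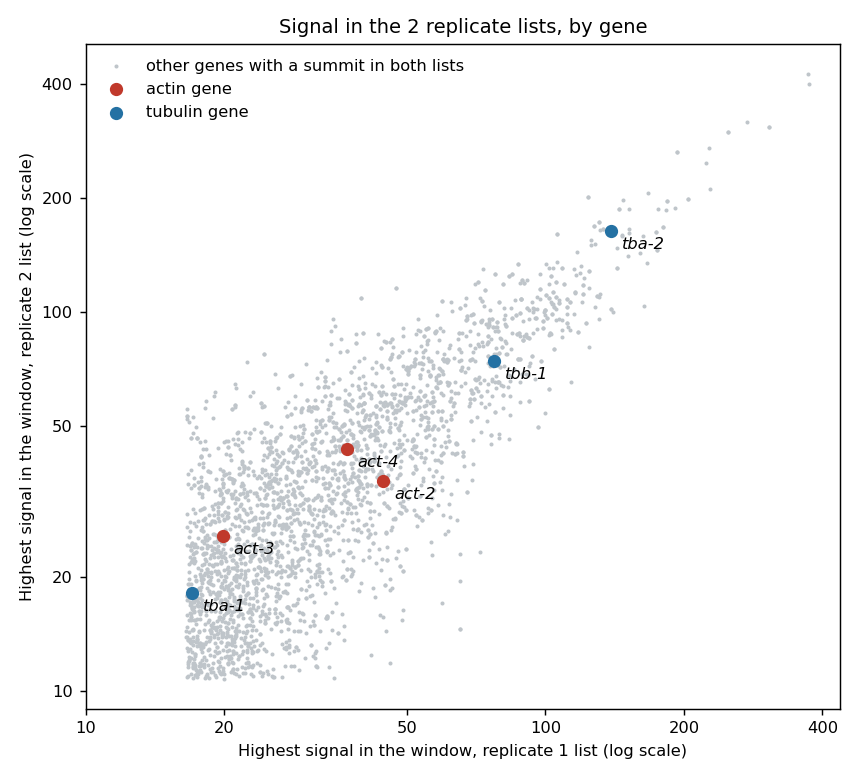
Highest signal in the window in the replicate 1 list (x) and the replicate 2 list (y), on log axes, for 3037 protein-coding genes with a summit in both (grey), with actins in red and tubulins in blue. The member tba-2 lies at 139 and 164 among the highest genes, and tbb-1 at 77.5 and 74.1. The actins act-2 and act-4 lie at 44.4 and 35.9 and at 37.0 and 43.4. Lowest of the 6 members on both axes are act-3, at 19.9 and 25.7, and tba-1, at 17.05 and 18.2.

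The tissue-restricted actins differed: act-4 had an IDR summit in its window and act-5 had no summit in any list. At act-4 (WBGene00000066, X chromosome at 4960621 to 4964413), the IDR peak at 4962309 to 4962704 had a signal of 83.4 and ranked 1284. The signal was 37.0 in replicate 1, at rank 1571, and 43.4 in replicate 2, at rank 1391, with the summit at the same base in both. That summit was in the intron at 4960719 to 4962799 of the longer transcript, 1886 bp downstream of its 5′ end, and 368 bp upstream of the 5′ end of the shorter transcript. At the 5′ end of the longer transcript the signals were lower: 45.3 in the pooled list, 81 bp downstream, 19.7 in replicate 1, 147 bp downstream, and 32.6 in replicate 2, 53 bp upstream. The call at act-4 therefore rests on the internal 5′ end. With the most upstream 5′ end of each gene alone, 0 of 2 tissue-restricted members and 3 of 8 broadly expressed members had an IDR summit, against 6.35% of all genes.

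At act-5 (WBGene00000067, chromosome III at 13604412 to 13606066) no list had a summit in the window. The nearest was a replicate 2 summit 1586 bp upstream, with a signal of 11.4 at rank 27228 of 30000, and it lay in the window of the divergent gene shpk-1. The nearest pooled summit was 10143 bp upstream and the nearest IDR summit 16498 bp upstream. Among the 10 members act-5 was the farthest from an IDR summit.

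The actin proteins are nearly the same, so the authors' placement of reads that match several copies could matter. ACT-1 and ACT-3 are identical over 376 residues, ACT-4 differs from them at 1 residue, ACT-2 at 3 and ACT-5 at 28 of 375. Of the 36-base words in the act-1 gene, 12.6% occur once in the genome, against 64.6% for act-2, 58.3% for act-3, 94.7% for act-4 and 99.1% for act-5. The sequence at the summits is more distinct: all words were unique in the 300 bp at the IDR summits of act-2, tba-2 and tbb-1, and 98.1% at act-4. In the windows of act-1 and of the downstream 5′ end of act-3, 78.1% were unique. The labels and file headers do not say how reads with several matches were handled, so the values within these windows of act-1 and act-3 are uncertain.

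Other cytoskeletal genes were described from 4 lists of 62 genes in all, of which 8, or 12.9%, had an IDR summit, against 6.69% of all genes. Of 11 other tubulins, which include the touch neuron genes mec-7 and mec-12 and tubulins of ciliated neurons, 0 had one. Among them only tbb-4 had a summit in both replicate lists, with signals of 23.2 and 12.6.

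Of 26 genes for actin assembly, 5, or 19.2%, had an IDR summit, against 6.69% of all genes. The highest were gex-3, which encodes a subunit of the WAVE complex, with a signal of 212, and cap-2, for the beta subunit of the filament capping protein, with 184. The summit at cap-2 also lay in the window of gmps-1. The tropomodulin gene unc-94 had 119.4, the Arp2/3 complex gene arx-2 had 95.6 and the gene of the other capping subunit, cap-1, had 95.1. Of 7 genes for tubulin folding and the gamma-tubulin complex, 1, or 14.3%, had an IDR summit, against the same 6.69%. It was the folding cofactor gene tbcd-1, with a signal of 74.8 at rank 1551 of 1626. Its ranks were 1708 in replicate 1 and 2253 in replicate 2, outside the 1626 highest peaks of each. Of 18 genes for microtubule motors and associated proteins, 2, or 11.1%, had one, against 6.69%. They were unc-116, the kinesin-1 heavy chain gene, with a signal of 135, and dli-1, a dynein light intermediate chain gene, with 83.2. The summit at dli-1 also lay in the windows of exos-4.1 and tin-9.2. Of the genes in these lists and the members, tba-2 had the highest IDR signal.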

How the data were processed

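The data were ce11 peak lists of ChIP-seq for eGFP-tagged NHR-237 from 2 biological replicates. Peaks were called relative to a control alignment, per the deposited text listings; aligner, peak caller and threshold for IDR are not stated in the sources used here. Signal values were deposited by the authors for every peak and left unscaled. The −log10 q-value was deposited by the authors in the replicate and IDR lists and not used to rank. In the pooled list that column, deposited by the authors, dips below 0 and was treated as a score. Depth per sample is unknown, and ce10 lists were not used.

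Summits (column 2 plus column 10) were given 1-based and ranked by signal within each list. 5′ ends came from protein-coding transcripts of Ensembl release 115 for WBcel235, whose chromosome ends no ce11 peak passed. Where a window held several summits, the highest stood for the gene. All 72 symbols of members and lists matched. The members, lists, motifs and classes were chosen with earlier results of these data known, and no test was made. Named genes were the members, genes sharing their IDR summits, up to 4 per list of highest IDR signal and 3 genes closest to tba-2. Chosen outside this rule after values were seen were cap-1, mec-7, mec-12, tbb-4, the neighbours of members and the transgene loci nhr-237 and unc-119. Proteins were aligned globally after translation of the longest coding sequence. Window assignment, tested on simulated data over 19973 genes, recovered 200 of 200 planted summits and assigned 0 of 200 planted outside. Python 3.11.15, numpy 2.4.6, pandas 2.3.3, Biopython 1.88 and matplotlib 3.10.9 were used.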

Additional observations from a re-analysis of the deposited data

How the results depend on the processing

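The count of 4 members with an IDR summit was taken again with the 1626 highest peaks of a single replicate in place of the IDR list. It was 4 without replicate 2 (6.39% of all genes) and 3, lacking act-2, without replicate 1 (6.55%). It was 2, tba-2 and tbb-1, when the window took 300 bp before and 100 bp after the 5′ end (5.11% of all genes), and also among the upper 813 IDR peaks by signal (3.53%). By both of these and with the most upstream 5′ end alone, the count of tissue-restricted members was 0; with single replicates it was 1. For broadly expressed members single replicates gave 2 to 3. With the 11 other tubulins, of which not all are known to be tissue-restricted, added to act-4 and act-5, 1 of 13 had an IDR summit (6.69% of all genes). With RefSeq 5′ ends, an alternative added after the data were seen, 3 members had an IDR summit (6.54% of all genes) and tba-2 did not. By nearest 5′ end within 2000 bp the count was 4 (6.62% of all genes), with act-1 in place of tbb-1, whose summit went to rib-2. The summit given to act-1 lay 1640 bp downstream of its 5′ end, beyond the gene's 3′ end. The 6 members with a summit in both replicate lists became 2 with the shorter window (10.4% of all genes) and 3 among the 1626 highest peaks of each list (4.85%). The 8 other cytoskeletal genes became 4 among the upper 813 IDR peaks (3.53% of all genes). They became 5 without replicate 2 (6.39%). Without replicate 1 the count was 8 (6.55%), but tbcd-1 and dli-1 dropped out and other genes of the lists took their place. The GC share at act-4 was 50% in 200 bp. The other alternatives listed left each count within 1.5 times its value. Unknown read depth limits what the absence of a summit shows. No paired analysis was possible because there is a single group.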

Other observations

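The loci that the strain's transgene concerns had few called summits at their annotated 5′ ends, and read coverage there was not examined. The window of nhr-237 held 0 summits in each of the 4 lists. The window of unc-119 held 1 summit in the pooled list, with a signal of 21.3, and 1 in the replicate 1 list, with a signal of 17.4, and none in the IDR and replicate 2 lists.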
